A study of Homo sapiens with 6 samples.

Results

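Mucins are large glycoproteins of epithelial surfaces. Stretches rich in serine and threonine carry dense O-linked glycans in these proteins, which makes them stiff, hydrated and resistant to proteases. Gel-forming mucins are secreted and build the mucus layer, whereas membrane-bound mucins stay on the apical cell surface, where several of them are cleaved, shed or linked to receptor signalling. Biliary epithelium makes both kinds, and cholangiocarcinomas often change which of them they express.

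Transcripts of 10 mucin genes were compared between HuCCT1/CD90+ and HuCCT1/CD90− cells. They were taken from the table of 20811 genes by their symbols, namely the gel-forming MUC2, MUC5B and MUC6 and the membrane-bound MUC1, MUC4, MUC12, MUC13, MUC15, MUC16 and MUC20. HuCCT1 is an established human intrahepatic cholangiocarcinoma (iCCA) line. HuCCT1/CD90+ cells received the human THY1-CMV-GFP lentivirus, which carries the gene for CD90, and HuCCT1/CD90− cells received the Lenti-CMV-GFP-2A-Puro-Blank lentivirus, both at an MOI of 40. The cells of both lines were grown in RPMI with fetal bovine serum and no drug treatment is given for these libraries. There was 1 transduced line of each kind with 3 libraries, and the labels do not say whether those came from separate cultures, so p-values measure the spread between these libraries, which may be technical. An effect of THY1 and any other difference between the lines therefore cannot be told apart.

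Each gene was read from 1 short amplicon. Values are RPM, read counts divided by library depth, and whole reads were recovered for all of them. Depth ran from 9345680 to 10551516 gene reads in HuCCT1/CD90− and from 8587634 to 9327650 in HuCCT1/CD90+. A line whose libraries all held 3 reads or fewer of a gene counted as being at the floor for it. The floor equals 0.284 to 0.349 RPM, depending on the library, and covers counting error only. Amplicons differ in how well they amplify, so RPM is compared between lines for each gene, and sums over genes are sums of amplicon reads. THY1 itself gave 0, 1 and 0 reads without its vector, and 435, 445 and 680 reads in HuCCT1/CD90+. The 7 biliary epithelial markers, among them KRT7 and KRT19, summed to 8210 to 9314 RPM per HuCCT1/CD90− library and 10970 to 11720 RPM per HuCCT1/CD90+ library, and 5 of them rose (limma, adjusted p of at most 0.05), or 3 when the replicate number was fitted as a block, while 9.41% and 6.72% of all genes rose in these fits. Of 6 hepatocyte markers, 5 were at the floor in both lines, ALB included, and APOA1 fell. The hepatocyte list summed to 1.84 to 4.28 RPM and to at most 0.465 RPM. Of 7 leukocyte and endothelial markers, 3 were at the floor in both lines, PTPRC included, and the list summed to 61.0 to 74.6 RPM and 84.6 to 102 RPM, mostly through CD68, which rose, while the endothelial CDH5 fell. The 6 fibroblast markers summed to 41.8 to 64.9 RPM and 20.3 to 24.7 RPM, and 5 of them fell, or 2 with the block, while 9.52% and 6.4% of all genes fell. In the 6 fits that left out 1 library each, KRT19, KRT8, APOA1, COL1A2, COL3A1, LUM and DCN lost their calls in 4 to 6. The part of these marker differences in the mucin results was not tested. Because these are bulk libraries, fewer cells of a kind and less RNA per cell cannot be told apart.

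The coding sequences of MUC1 and MUC20 are shown because these genes gave most of the mucin reads, in HuCCT1/CD90− and HuCCT1/CD90+ respectively. Each codes for a tandem repeat on which O-glycans are carried. The commonest in-frame repeat unit of each was taken from the transcript with the longest coding sequence in GENCODE 29 and is written 5′ to 3′, with the codons for serine and threonine in capitals.
MUC1: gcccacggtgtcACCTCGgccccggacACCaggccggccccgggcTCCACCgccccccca
MUC20: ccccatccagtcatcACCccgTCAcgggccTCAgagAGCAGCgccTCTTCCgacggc
The MUC1 unit spans 60 bases and occurred 19 times, with 5 of 20 codons for serine or threonine. The MUC20 unit spans 57 bases and occurred 10 times, with 7 of 19 such codons. Exact repeats were not shared by every mucin, and the following measure misses repeats whose copies differ. Bases that lie in a 30-base word used more than once made up 77.8% of the MUC12 coding sequence, 63.2% of MUC1, 57.7% of MUC4, 48.2% of MUC5B, 29.8% of MUC20, 17.7% of MUC6, 10.5% of MUC16 and 6.24% of MUC13, and there were none in MUC15. There were none in MUC2 either, but its annotated coding sequence held only 393 bases.

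The mucins moved in both directions. MUC20 and MUC16 rose in HuCCT1/CD90+, whereas MUC1, MUC5B and MUC6 fell, at an adjusted p of at most 0.05 (limma on log2(RPM + 1), Benjamini-Hochberg adjustment over all 20811 genes). Thus 2 of the 10 mucins were higher and 3 lower, while 9.41% of all genes were higher and 9.52% lower by the same rule. Shares of all genes, here and for the lists below, include genes at the floor in both lines. Of the 14098 genes above the floor in a line, as 8 of the mucins were, 13.5% were higher and 13.8% lower (27.4% in all). The values of the lines did not overlap for 6 of the 10 mucins, against 35% of all genes. Among the 10, log2 fold changes had a median of 0.075, beside 0 for the whole table. With the replicate number as a block, 1 mucin was higher and 3 were lower, against 6.72% and 6.4% of all genes (13.1% in either direction), and MUC16 was the one lost. On recovered reads, edgeR tested 6 of the mucins and called 3 higher and 3 lower, against 22.2% and 22.2% of its genes (44.4% in all). DESeq2 also called 3 higher and 3 lower, against 19% and 18.1% (37.1% in all). The thresholds of the study, a fold change of 1.5 and an unadjusted p of at most 0.05, gave 3 higher and 3 lower as well, against 10.1% and 9.98% (20.1% in all). MUC13 was the gene added in each case.

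**Figure D1:**
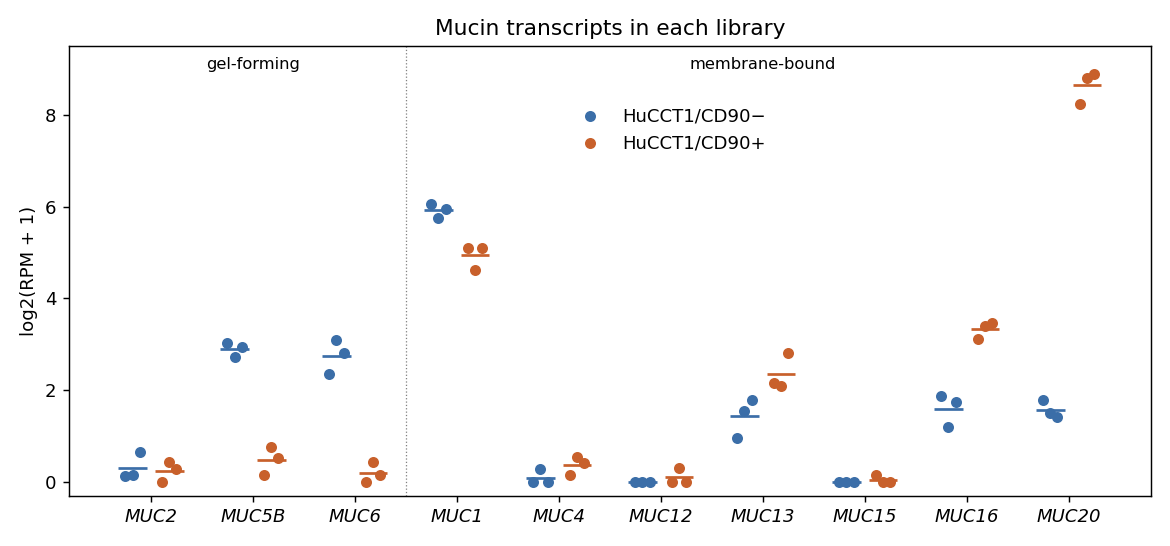
Expression of the 10 mucins as log2(RPM + 1) on the y axis, by gene on the x axis, with 1 point per library (3 per line) and a bar at the mean of each line; blue is HuCCT1/CD90− and orange HuCCT1/CD90+. MUC20 reached 299 to 475 RPM in HuCCT1/CD90+ from at most 2.46 RPM, while MUC5B and MUC6 dropped to 0.699 RPM or less.

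Among the membrane-bound mucins, MUC20 changed most. It encodes a small membrane mucin that has been described as a partner of the hepatocyte growth factor receptor MET. In HuCCT1/CD90−, MUC20 stood at 2.46, 1.82 and 1.65 RPM (26, 17 and 17 reads). In HuCCT1/CD90+ it stood at 299, 444 and 475 RPM (2788, 3816 and 4375 reads). Every HuCCT1/CD90+ library was thus far above every HuCCT1/CD90− library, and the spread within HuCCT1/CD90+ was small beside this gap. The means were 1.98 ± 0.430 and 406 ± 94.0 RPM (SD, n = 3 each), a ratio of 205. By limma the log2 fold change came to 7.08, with a standard error of 0.23, a 95% confidence interval from 6.47 to 7.68 and an adjusted p of 0.00043.

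The source of these reads is uncertain. Of the MUC20 coding sequence, 60.6% was matched at an identity of at least 98% by transcripts of other genes. One was MUC20P1, a pseudogene on chromosome 3, with a best identity of 99.5%, and the other the overlapping non-coding gene MUC20-OT1, with stretches that were identical. Neither has a row of its own in the table, and where the amplicon lies is not given in the sources used here. No such match on the same strand was found for the other 9 mucins.

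MUC16, a very large membrane mucin that binds mesothelin, had 2.65, 1.28 and 2.33 RPM in HuCCT1/CD90− and 7.72, 9.55 and 9.98 RPM in HuCCT1/CD90+. All HuCCT1/CD90+ libraries lay above all HuCCT1/CD90− libraries, at 72 to 92 reads against 12 to 28. The means were 2.09 ± 0.716 and 9.08 ± 1.20 RPM (SD, n = 3 each), a ratio of 4.35, and limma gave a log2 fold change of 1.73 with a standard error of 0.22 (adjusted p = 0.011). This call was at the edge, since the adjusted p was 0.066 with the replicate block and 0.051 without HuCCT1/CD90+ replicate 3.

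MUC13, a membrane mucin of the digestive tract, had 0.948, 1.93 and 2.43 RPM in HuCCT1/CD90− and 3.43, 3.26 and 5.97 RPM in HuCCT1/CD90+. The groups did not overlap, at 10 to 55 reads per library, and the 95% confidence interval of the log2 fold change of 0.92 ran from 0.075 to 1.76. The difference thus exceeded the replicate spread for MUC13 alone, but in limma it did not pass after adjustment over all genes (unadjusted p = 0.038, adjusted p = 0.13). It passed on recovered reads, with an adjusted p of 0.0084 in edgeR and 0.017 in DESeq2, and in limma when genes with a mean under 1 RPM were left out (adjusted p = 0.010).

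MUC1 moved the other way. It encodes a membrane mucin of most glandular epithelia whose cytoplasmic tail binds β-catenin and other signalling proteins. MUC1 measured 65.7, 53.0 and 60.3 RPM in HuCCT1/CD90− and 33.1, 23.4 and 33.3 RPM in HuCCT1/CD90+, backed by 201 to 693 reads per library. No HuCCT1/CD90+ library reached the lowest HuCCT1/CD90− library. The mean fell from 59.7 ± 6.38 to 29.95 ± 5.67 RPM (SD, n = 3 each), which is 1.99-fold lower. This was a log2 fold change of -0.98 with a 95% confidence interval from -1.45 to -0.51 (standard error 0.18), and limma's adjusted p was 0.027, or 0.035 with the block. With 1 library left out the adjusted p ran from 0.032 to 0.092, and it stayed under the threshold only when HuCCT1/CD90+ replicate 2 was the one removed, while the log2 fold change stayed between -1.07 and -0.82.

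The remaining membrane mucins were scarcely detected. MUC4, a membrane mucin that can bind ERBB2, had 0, 2 and 0 reads in HuCCT1/CD90− but 1, 4 and 3 reads in HuCCT1/CD90+, so that it barely left the floor (log2 fold change 0.28, 95% confidence interval -0.11 to 0.66, adjusted p = 0.30). MUC12, known from the colon, and MUC15, a small membrane mucin, were at the floor in both lines, with at most 2 reads and 1 read in any library. A difference in MUC12 or MUC15 was not detectable at this depth.

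The gel-forming mucins MUC5B and MUC6 were present in HuCCT1/CD90− and nearly absent from HuCCT1/CD90+. MUC5B, a mucin of airway and gallbladder mucus, had 7.11, 5.56 and 6.69 RPM in HuCCT1/CD90− and 0.107, 0.699 and 0.434 RPM in HuCCT1/CD90+, or 52 to 75 reads against 1 to 6. The lowest HuCCT1/CD90− value was well above the highest HuCCT1/CD90+ value, and the means of 6.46 ± 0.799 and 0.413 ± 0.297 RPM (SD, n = 3 each) were 15.6-fold apart. Limma gave -2.42 as the log2 fold change (standard error 0.19, adjusted p = 0.0032), on a scale that understates the change of a gene with so few reads. An antisense gene, MUC5B-AS1, overlaps MUC5B. If the amplicon lies in a shared stretch and the counting ignored strand, their reads cannot be told apart. Neither point is given in the sources used here.

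MUC6, a mucin of gastric and biliary glands, had 4.08, 7.49 and 6.02 RPM in HuCCT1/CD90−, from 43, 70 and 62 reads, whereas HuCCT1/CD90+ gave 0, 3 and 1 reads. HuCCT1/CD90+ was thus at the detection floor, and the mean of 5.86 ± 1.71 RPM (SD, n = 3) in HuCCT1/CD90− was at least 17.6-fold higher than that floor, taken as the mean over the 3 libraries. Limma gave -2.55 for MUC6 (log2 fold change, standard error 0.24, adjusted p = 0.0050). MUC2, the gel-forming mucin of intestinal goblet cells, was too low in both lines for a fall to be detectable at this depth. It had 1, 1 and 6 reads in HuCCT1/CD90− and 0, 3 and 2 reads in HuCCT1/CD90+. Its lines overlapped (log2 fold change -0.075, 95% confidence interval -0.62 to 0.47, adjusted p = 0.99).

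**Figure D2:**
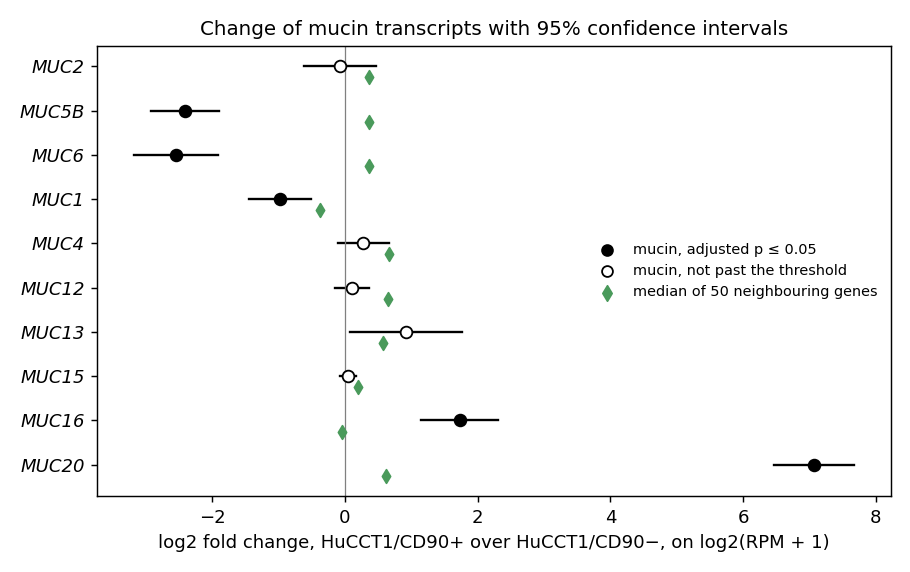
Log2 fold change of each mucin on the x axis (HuCCT1/CD90+ over HuCCT1/CD90−, on log2(RPM + 1)), by gene on the y axis, with bars for the 95% confidence interval from limma. Filled circles passed an adjusted p of 0.05, open circles did not, and green diamonds are the median change of the 50 nearest expressed genes; MUC5B and MUC6 fell by 2.42 and 2.55 while their neighbours had a median of 0.36.

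The summed reads of the 10 amplicons show how the makeup shifted. Their sum was 83.0, 71.4 and 80.0 RPM in HuCCT1/CD90−, against 343, 483 and 525 RPM in HuCCT1/CD90+. MUC1 held 74.2% to 79.1% of these reads in HuCCT1/CD90− and 4.85% to 9.64% in HuCCT1/CD90+, whereas MUC20 went from 2.06% to 2.97% of them to 87.0% to 92.1%. Without MUC20 the order turned, with 69.5 to 80.6 RPM left in HuCCT1/CD90− but 38.3 to 50.4 RPM in HuCCT1/CD90+. No test was made on these sums.

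**Figure D3:**
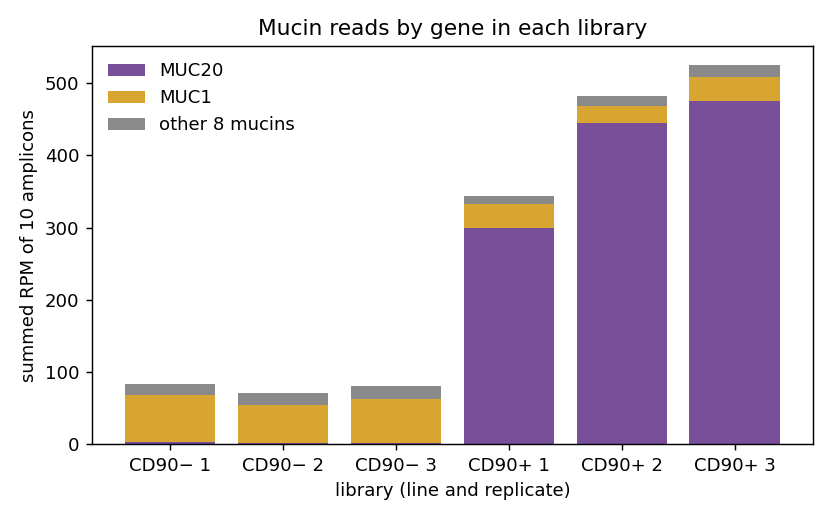
Summed RPM of the 10 mucin amplicons on the y axis, by library on the x axis, split into MUC20 (purple), MUC1 (yellow) and the other 8 (grey). MUC1 gave most reads in the 3 HuCCT1/CD90− libraries, and MUC20 gave 87.0% or more in the 3 HuCCT1/CD90+ libraries.

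Each mucin was set beside the 50 nearest genes of its chromosome with a mean of at least 10 RPM. MUC20 and MUC4 lie side by side on chromosome 3, where the neighbours had a median log2 fold change of 0.62 around MUC20 and 0.66 around MUC4, with 27 of the 50 higher and 0 lower at an adjusted p of at most 0.05 (limma). Of all 8655 placed genes at that level, 14.3% were higher and 14.1% lower (28.4% in all), with a median of 0.012. The change of MUC20 less that of its neighbours was still 6.45. MUC13, on the same chromosome, had neighbours with a median of 0.57, which left 0.35 of its 0.92. The log2(RPM + 1) scale understates the change of a gene as low as MUC13 more than that of these neighbours. On recovered reads MUC13 had a log2 fold change of 1.26 in edgeR and 1.28 in DESeq2, so the 0.35 may be too low. MUC1, on chromosome 1, lay among genes with a median of -0.38, of which 16 were lower and 3 higher, and its own change less theirs was -0.60. MUC6, MUC2 and MUC5B form a cluster on chromosome 11 whose neighbours had a median of 0.36, with 15 of the 50 higher and 5 lower. The falls of MUC5B and MUC6 therefore ran against that median, and amounted to -2.77 and -2.91 relative to it. MUC16, on chromosome 19, had neighbours with a median of -0.047. Around MUC12, on chromosome 7, the median was 0.66 with 29 higher and 0 lower, although MUC12 itself was at the floor, and around MUC15, on chromosome 11, it was 0.19. The part of these neighbourhoods in the mucin changes was not tested.

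Promoter windows were found in the RefSeq table (GRCh38.p14) for 6 of the 10 mucins, 8 windows in all. The 250 bases before the start were searched on both strands for the E2 box (CACCTG or its reverse complement CAGGTG), the element bound by ZEB and SNAIL repressors. MUC1 is shown because its window held 2 such boxes, here in capitals. The sequence is that of the minus strand, chr1:155192916-155193165.
MUC1: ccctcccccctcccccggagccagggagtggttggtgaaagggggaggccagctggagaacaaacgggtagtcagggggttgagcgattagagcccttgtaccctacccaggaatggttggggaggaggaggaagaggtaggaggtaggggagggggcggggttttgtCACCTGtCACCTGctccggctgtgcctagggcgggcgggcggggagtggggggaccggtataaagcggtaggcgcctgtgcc
The boxes stand next to each other with 1 base between them. The other MUC1 window overlaps this one almost entirely and holds the same boxes. One of the MUC16 windows held an E2 box and the other none, so that the box was found for 2 of the 6 mucins. It occurred in 17.5% of the 35116 windows of all genes, a share of windows and not of genes. The windows of MUC2, MUC4, MUC12 and MUC13 held none.

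Mucin proteins acquire their glycans in the Golgi, where GalNAc transferases (GALNT enzymes) add the first N-acetylgalactosamine to serine or threonine. Of 20 such genes in the table, 6 were higher in HuCCT1/CD90+, 0 were lower and 14 did not pass (limma, adjusted p of at most 0.05), beside 9.41% higher and 9.52% lower over all genes. With the block 5 were higher and 0 lower, beside 6.72% and 6.4%, and the list had log2 fold changes with a median of 0. Of the 14 that did not pass, 7 were at the floor in both lines. The 13 genes above the floor in a line had a median of 0.39, beside -0.0087 for all such genes. GALNT3 rose from 15.2 ± 2.59 to 68.9 ± 8.18 RPM, GALNT5 from 49.4 ± 10.1 to 149 ± 5.47 RPM, GALNT7 from 35.8 ± 7.28 to 117 ± 12.5 RPM and GALNT12 from 21.0 ± 1.06 to 71.1 ± 13.5 RPM (SD, n = 3 each). Their log2 fold changes lay between 1.59 and 2.11, and GALNT7 had an adjusted p of 0.054 with the replicate block. GALNT9 and GALNT11 were the other 2 that rose, with log2 fold changes of 2.44 and 0.81. GALNT2, at 287 ± 21.0 and 242 ± 15.4 RPM, did not pass (log2 fold change -0.25, adjusted p = 0.10).

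Genes listed for enzymes that extend or cap O-glycans differed in both directions, though which of these enzymes act on mucins was not tested. Of 15 genes, 3 were higher and 3 lower (limma, adjusted p of at most 0.05), beside 9.41% and 9.52% of all genes. The counts were equal with the block, beside 6.72% and 6.4%, and the list had log2 fold changes with a median of 0.38 beside 0 over all genes. B3GNT3, which extends core 1 glycans, rose from 13.7 ± 4.67 to 141 ± 18.8 RPM (log2 fold change 3.31), and the sialyltransferase gene ST6GALNAC5 from 8.12 ± 1.54 to 50.9 ± 7.99 RPM. ST6GALNAC2, which sialylates O-glycans, rose as well, from 0.601 to 4.10 RPM. GCNT1, the core 2 branching enzyme, fell from 36.4 ± 5.37 to 7.17 ± 0.705 RPM, and ST3GAL2, which adds sialic acid to core 1, from 50.9 ± 6.74 to 7.11 ± 1.79 RPM. ST6GALNAC3 fell from 6.84 to 0.436 RPM. ST3GAL1 went the other way from ST3GAL2, from 24.2 ± 7.14 to 44.8 ± 5.35 RPM without overlap of the lines. It did not pass in limma (log2 fold change 0.89, adjusted p = 0.072) but did in edgeR (0.0011) and DESeq2 (0.00014). C1GALT1, the core 1 synthase, and its chaperone C1GALT1C1 did not pass, with log2 fold changes of 0.46 and -0.21 (adjusted p = 0.11 and 0.32 in limma), although C1GALT1 passed on recovered reads (0.019 in edgeR, 0.013 in DESeq2).

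Of 20 genes of the programme of mucus-secreting cells, 7 rose and 1 fell (limma, adjusted p of at most 0.05), beside 9.41% and 9.52% of all genes. With the replicate block 5 rose and 0 fell, beside 6.72% and 6.4%, and FOXA3 was 1 of those 5 although it did not pass without the block (adjusted p = 0.068, or 0.025 with it). The list had a median log2 fold change of 0.44. AGR2, a disulfide isomerase of the endoplasmic reticulum needed for mucin folding, rose from 223 ± 66.9 to 666 ± 153 RPM (adjusted p = 0.029). ATP2C2, a Golgi calcium pump of secretory epithelia, was without reads in HuCCT1/CD90−, and its 14.5 ± 1.89 RPM in HuCCT1/CD90+ was at least 48.4-fold higher than the floor. BCAS1 rose from 2.91 to 37.0 RPM and the transcription factor gene KLF4, known for its role in goblet cell differentiation, from 1.32 to 11.3 RPM, the latter with an adjusted p of 0.013 and 0.056 with the block. FOXA1 (log2 fold change 2.06), QSOX1 (0.51) and TFF3 (0.41) also passed, although QSOX1 and TFF3 had adjusted p-values of 0.086 and 0.083 with the block, TFF3 with no reads in HuCCT1/CD90− and only 0.335 RPM in HuCCT1/CD90+. CREB3L1, a transcription factor of the secretory pathway, fell from 24.5 ± 8.74 to 4.46 ± 1.15 RPM, at an adjusted p of 0.021 that became 0.096 under the block. SPDEF, a regulator of goblet cells, measured 35.7 ± 6.75 and 48.9 ± 2.46 RPM and did not pass in limma (adjusted p = 0.14), but did in edgeR (0.032) and DESeq2 (0.026). With 1 library left out, the 8 calls of this list fell to between 3 and 6. There were 3 without HuCCT1/CD90+ replicate 1, 4 without HuCCT1/CD90+ replicate 3 and 5 without HuCCT1/CD90− replicate 1 or 3. AGR2 then had adjusted p-values of 0.037 to 0.096 and passed only without HuCCT1/CD90− replicate 2. CREB3L1 passed only without HuCCT1/CD90− replicate 1, QSOX1 only without HuCCT1/CD90− replicate 2 or 3, and TFF3 only without HuCCT1/CD90+ replicate 2 or 3, whereas KLF4 was lost without HuCCT1/CD90+ replicate 1 or 3. The goblet cell products CLCA1 and CLCA4 had no reads in either line.

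**Figure D4:**
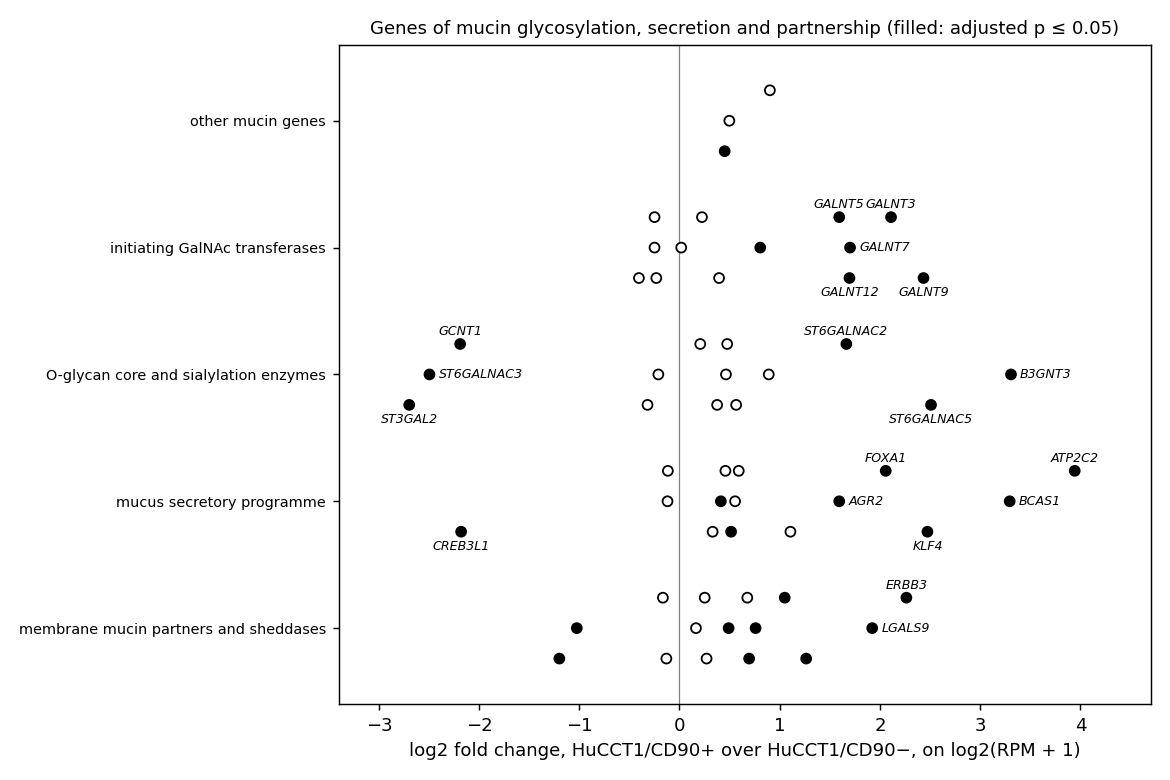
Log2 fold change on the x axis (HuCCT1/CD90+ over HuCCT1/CD90−, on log2(RPM + 1)) of genes of 5 lists on the y axis, 1 point per gene, leaving out genes at the floor in both lines; filled points passed an adjusted p of 0.05 in limma. All 6 filled GALNT points lie to the right of 0, whereas the enzymes that extend or cap O-glycans have 3 filled points on each side.

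Partners and sheddases of membrane mucins were examined last. Of 15 genes, 7 rose and 2 fell (limma, adjusted p of at most 0.05), beside 9.41% and 9.52% of all genes, and 4 and 1 did with the block, beside 6.72% and 6.4%. All 15 were above the floor in a line, and of all genes above it 13.5% rose and 13.8% fell without the block. The median log2 fold change of these genes was 0.49. MET, which codes for the receptor linked to MUC20, rose from 118 ± 14.9 to 246 ± 36.8 RPM (adjusted p = 0.017). The receptor genes EGFR and ERBB3 rose from 228 ± 53.0 to 541 ± 63.6 RPM and from 13.4 ± 3.98 to 66.8 ± 7.25 RPM, the former with an adjusted p of 0.024 and 0.068 with the block. ERBB2, at 33.1 ± 6.19 and 36.9 ± 2.98 RPM, did not pass (adjusted p = 0.57). LGALS9, which codes for a glycan-binding galectin, rose from 4.01 to 17.98 RPM and LGALS3 from 195 to 330 RPM, the latter with an adjusted p of 0.065 under the block. CTNNB1, the gene of β-catenin, fell from 929 ± 84.9 to 455 ± 33.7 RPM (adjusted p = 0.0048). MMP14, a membrane protease that can shed MUC1, fell from 325 ± 94.0 to 137 ± 11.1 RPM, at an adjusted p of 0.032 that became 0.078 under the block. ADAM9 and ADAM10 rose with log2 fold changes of 0.70 and 0.49, ADAM9 with an adjusted p of 0.057 under the block, whereas ADAM17, another MUC1 sheddase, had a log2 fold change of -0.17 and did not pass (adjusted p = 0.52). The 9 calls fell to 4 without HuCCT1/CD90+ replicate 1 or 3. With 1 library left out, MET had adjusted p-values of 0.024 to 0.066 and passed only without HuCCT1/CD90− replicate 3 or HuCCT1/CD90+ replicate 2. EGFR and MMP14 passed only without HuCCT1/CD90− replicate 1 or 2, and ADAM9 only without HuCCT1/CD90− replicate 3, whereas ADAM10 was lost without HuCCT1/CD90− replicate 1 or HuCCT1/CD90+ replicate 1 or 3. MSLN, the gene of mesothelin, which MUC16 binds, measured 49.7 ± 12.1 and 78.9 ± 8.14 RPM (adjusted p = 0.089 in limma, 0.0042 in edgeR and 0.0014 in DESeq2).

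Other genes of the mucin family added little. Of 7 in the table, 4 were at the floor in both lines, MUC7 and MUC17 with no reads at all. MUC21 had no reads in HuCCT1/CD90− and 0.214, 0.466 and 0.434 RPM in HuCCT1/CD90+, which passed the test (log2 fold change 0.45, adjusted p = 0.028, limma) but not with the block (adjusted p = 0.085), and with 1 library left out it passed only without HuCCT1/CD90+ replicate 1. OVGP1 went from 1.60 ± 0.834 to 3.73 ± 0.854 RPM and MUCL3, listed as DPCR1, from 0.404 ± 0.269 to 0.987 ± 0.447 RPM, neither past the threshold in limma. On recovered reads OVGP1 passed, with an adjusted p of 0.012 in edgeR and 0.027 in DESeq2. MUC3A, MUC3B, MUC5AC, MUC8 and MUC19 were not analysed here.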

How the data were processed

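RNA of 3 HuCCT1/CD90− and 3 HuCCT1/CD90+ libraries was amplified by the authors with the Ion AmpliSeq Transcriptome panel, and its reads were counted by amplicon in the Torrent Suite software (plugin ampliSeqRNA), against hg19 per the submitters' processing notes, which also name the Transcriptome Analysis Console. The authors deposited RPM values, 1 per gene, without a filter on low values. Whole reads were recovered from the RPM steps for 100% of values (within 0.0006 RPM).

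Values were taken to log2(RPM + 1) and tested over all 20811 genes in R 4.3.3 with limma 3.58.1 (eBayes, defaults, two-sided), the method the study names, with Benjamini-Hochberg adjustment and a threshold of 0.05. edgeR 4.0.16 (quasi-likelihood, TMM, filterByExpr, 12070 genes) and DESeq2 1.42.0 were run on the recovered reads as alternatives. edgeR called 5357 and DESeq2 5328 genes, limma 3939. The other alternatives were offsets of 0.1 and 5 RPM, a mean of at least 1 RPM, quantile normalization, median centring, eBayes with trend and robust settings, the study's thresholds (fold change of 1.5, unadjusted p), the replicate block, each library left out and the change of neighbours subtracted. Fits were tested on simulated data with known changes.

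The members and lists were chosen with earlier results of these data known. Named genes are the 10 mucins, THY1, other mucin genes, and in each list called genes with an absolute log2 fold change of at least 1 and a mean of at least 10 RPM in a line, at most 6 a list. Further list genes were named after their values were seen. Same-numbered libraries deviated together (r = 0.21, 0.32 and 0.18 for numbers 1, 2 and 3 over all genes). Libraries of different numbers had r from -0.29 to 0.07. Deviations from a mean of 3 libraries are tied to each other, so this check is weak. It alone was the ground for the replicate block, and the main fit took no account of pairing. Gene order, coding sequences and copies (blastn 2.17.0, at least 98% identity over 100 bases) came from GENCODE 29 (GRCh38), and no coordinates of the table's amplicons were used. Protein features were not analysed here.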

Additional observations from a re-analysis of the deposited data

How the results depend on the processing

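MUC20, MUC5B and MUC6 kept their direction and stayed under an adjusted p of 0.05 in every test alternative run. Their highest adjusted p-values were 0.019, 0.043 and 0.030. The size of low genes depended on the offset: with 5 RPM the log2 fold changes of MUC5B and MUC6 were -1.08 and -1.06, and with 0.1 RPM they were -3.87 and -4.78. DESeq2, run on recovered reads, gave -3.98 and -5.29. No called mucin reversed. With the replicate block calls over all genes fell from 3939 (18.9%) to 2729 (13.1%), 1 mucin was higher in place of 2, and the calls were 0 for other mucin genes, 5 for the mucus secretory programme, 5 for partners and sheddases and 3 for mucin-like glycoproteins. With 1 library left out, 1 to 2 mucins were higher and 2 to 3 lower, and calls ranged over 0 to 1 for other mucin genes, 3 to 6 for the secretory programme, 4 to 8 for partners and sheddases, 4 to 6 for mucin-like glycoproteins, 6 to 6 for GalNAc transferases and 6 to 7 for the enzymes that extend or cap O-glycans. The lowest count of the secretory programme came without HuCCT1/CD90+ replicate 1, and that of the partners without HuCCT1/CD90+ replicate 1 or 3. Over all genes leaving out 1 library gave 2197 to 2932 calls in place of 3939. Genes at a few reads (MUC2, MUC4, MUC12, MUC15) are limited by depth.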

Other observations

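Genes of surface proteins that carry dense O-glycans, but without a MUC gene symbol, were also read, from a list of 14 genes in the table. Of these, 3 were higher and 3 lower in HuCCT1/CD90+ (limma, adjusted p of at most 0.05), beside 9.41% and 9.52% of all genes. One of the 3 higher was PODXL2, which by its reads (0, 0 and 0 against 3, 3 and 2) was at the floor in both lines. With the replicate block CD44 and PODXL2 were higher and 1 gene was lower, while that fit called 13.1% of all genes in either direction. Its log2 fold changes had a median of 0.028. PODXL, which codes for the anti-adhesive sialomucin podocalyxin, rose from 74.4 ± 19.0 to 279 ± 17.8 RPM (SD, n = 3 each, log2 fold change 1.92, adjusted p = 0.0070 and just over 0.05 with the block), and CD44, the gene of a hyaluronan receptor, from 1.67 ± 0.505 to 14.7 ± 0.457 RPM (adjusted p = 0.0018). The CD44 amplicon may see only some of the many isoforms of this gene, and where it lies is not given in the sources used here. DAG1, the gene of dystroglycan, fell from 389 ± 60.4 to 219 ± 4.81 RPM, at an adjusted p of 0.016 that became 0.064 under the block, and its call was lost without any 1 of the HuCCT1/CD90+ libraries. HAVCR1, with 2.40 ± 0.652 RPM in HuCCT1/CD90−, was at the floor in HuCCT1/CD90+ and at least 7.22-fold lower. CD164, the gene of the sialomucin endolyn, measured 121 ± 30.1 and 138 ± 12.2 RPM and did not pass (adjusted p = 0.61).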
